A study of Mus musculus with 18 samples.

Results

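Interferon regulatory factors (IRFs) are transcription factors that share a DNA-binding domain and recognise related GAAA-type sites. The members described here are Irf1, Irf2, Irf3, Irf4, Irf5, Irf7, Irf8 and Irf9, taken by gene symbol from the authors' gene tables. These 8 genes are among 23420 listed, and all 8 were among the 11876 with enough counts to be tested.

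RNA was sequenced from bone-marrow-derived dendritic cells (BMDC), a cultured model of the cells that present antigen to T cells. Marrow came from C57BL/6 mice and was cultured with GM-CSF at 20 ng/ml. After 8 hours of treatment, live cells with high CD11c, an integrin of dendritic cells, were sorted. The 18 libraries form 6 groups of 3. Wild-type (WT) cells received medium, lipopolysaccharide (LPS, a bacterial ligand of the receptor TLR4), IL10 + TGF-β (cytokines that restrain immune responses), or LPS + IL10 + TGF-β. Cells of the genotype Bat3 fl/fl CD11c Cre, called cKO here, received medium or LPS; Cre in them is driven by the promoter of CD11c, so deletion depends on cells that use it. Bag6, listed under its former symbol Bat3 in the genotype, encodes a chaperone. All 6 groups share the GM-CSF culture and the sort. The sources used here give neither the doses of LPS and cytokines nor the animals or cultures behind each library. The labels speak of 5 biological replicates in one place and of triplicates in another, and 3 libraries per group were analysed here. P-values therefore measure the spread between these libraries, which may be technical. No cKO cells received the cytokines.

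In the textbook scheme, TLR4 signalling through the adaptor TRIF lets the kinase TBK1 phosphorylate IRF3, which is made constitutively and starts transcription of interferon-β. Interferon binding to its receptor assembles a complex called ISGF3, in which IRF9 contacts DNA and which binds interferon-stimulated response elements (ISREs) and raises IRF7, an amplifier of interferon genes. IRF5 works downstream of the adaptor MyD88 on inflammatory cytokine genes. IRF1 is an early inducible activator and IRF2 its classical antagonist. IRF4 and IRF8 bind with partners such as PU.1 and BATF proteins and are known for their roles in the development of different dendritic cell types.

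The libraries held between 8056831 and 12068759 expected counts. Bag6 lay between 22.8 and 27.6 CPM (counts scaled by library size with TMM factors) in all WT libraries, between 4.56 and 7.31 CPM in cKO medium and between 6.31 and 11.3 CPM in cKO LPS, so transcripts of the targeted gene were lower but present in the cKO libraries. Itgax, which encodes CD11c, lay between 254 and 1014 CPM in all libraries, while Flt3, another dendritic cell marker, did not exceed 0.441 CPM in any. The sum of 10 dendritic cell markers was 4284 to 9930 CPM in WT medium, 7845 to 8657 in WT LPS, 5858 to 8877 in cKO medium and 8807 to 9451 in cKO LPS, but only 1640 to 2282 with IL10 + TGF-β and 1380 to 1873 with LPS + IL10 + TGF-β. The third WT medium library had the lowest sum of its group, 4284 CPM, and stands apart from the other two in Irf4, Irf8 and Irf9 as well. Rn45s, the ribosomal RNA precursor, lay between 11402 and 35349 CPM in cKO medium and between 45536 and 85661 CPM in the other groups. Lymphocyte markers were at or near 0, with a summed level of at most 0.841 CPM.

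Positions are those of RefSeq on GRCm38.p6, the assembly also called mm10. Irf1 lies on chromosome 11 at 53770014 to 53778374, Irf5 on chromosome 6 at 29526130 to 29541869, and Irf9 on chromosome 14 at 55603985 to 55610030. Irf3 (44997648 to 45002848) and Irf7 (141263183 to 141266499) both lie on chromosome 7, and Irf2 (46739745 to 46847458) and Irf8 (120736358 to 120756694) both on chromosome 8. Irf4 lies on chromosome 13 at 30749233 to 30766981. Irf7 is on the minus strand and the others are on the plus strand. The span of Irf5 overlaps that of Tnpo3 and the span of Irf2 overlaps 2 unnamed gene models, so reads there cannot be told apart without strand information, which is not given in the sources used here.

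Promoter windows were searched because several IRF genes are themselves known targets of interferon and NF-kB signalling. All 8 members had a RefSeq window of 250 bases before to 50 bases after a transcription start. On both strands, GAAANNGAA (the ISRE core) was in 8.56% of 32851 such windows. TTCNNNGAA (the gamma-activated sequence, GAS, bound by STAT dimers) was in 8.30% of them. GGANNTTCC, a narrow form of the inner letters of the NF-kB site, was in 4.26%. Irf1 and Irf8, both raised by LPS, held GAS matches, and Irf2, the flattest member in CPM, held an ISRE core and a GAS match. The stretches upstream of the start follow 5′ to 3′, with matches in capitals. They lie on the plus strand at chr11:53769904-53769952, chr8:120736167-120736233 and chr8:46739495-46739549.
Irf1: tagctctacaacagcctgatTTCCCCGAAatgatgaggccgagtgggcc
Irf8: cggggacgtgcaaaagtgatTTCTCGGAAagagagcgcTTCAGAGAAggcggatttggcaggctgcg
Irf2: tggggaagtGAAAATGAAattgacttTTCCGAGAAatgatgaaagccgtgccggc

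The windows of Irf3, Irf4, Irf5, Irf7 and Irf9 held none of these letters, which says nothing about sites elsewhere or with other letters. Irf7 and Irf9 followed each other most closely across libraries, so the 100 bases before each gene are shown, with no match to mark. They lie at chr7:141266500-141266599 on the minus strand and chr14:55603885-55603984 on the plus strand.
Irf7: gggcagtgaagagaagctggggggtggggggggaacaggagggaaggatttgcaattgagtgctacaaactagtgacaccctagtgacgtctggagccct
Irf9: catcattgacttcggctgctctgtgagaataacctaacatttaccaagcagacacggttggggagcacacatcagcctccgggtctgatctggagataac

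Levels of different genes were compared in TPM, which the authors deposited scaled for transcript length. In WT medium Irf5 stood first at 455 ± 30.3 TPM (SD, n = 3) and made up 69.3% of the members' summed TPM. Irf4 (61.6 TPM) and Irf8 (45.4 TPM) came next with overlapping libraries, followed by Irf2 (29.0), Irf3 (26.6), Irf9 (19.7), Irf1 (15.3) and Irf7 (4.25). In cKO medium Irf5 was again first at 366 ± 13.3 TPM and Irf7 last at 5.69 TPM, while Irf8 (58.9 TPM) and Irf4 (46.6 TPM) again overlapped. Under LPS, Irf7 moved from last to first: it reached 1522 ± 86.3 TPM in WT cells and 1297 ± 57.2 TPM in cKO cells, or 63.9% and 63.8% of the summed TPM. With IL10 + TGF-β alone, Irf7 (298 ± 68.2 TPM) and Irf5 (227 ± 4.54 TPM) had overlapping libraries, and with LPS + IL10 + TGF-β Irf7 stood first at 949 ± 143 TPM. The sum over the 8 genes was 656 ± 57.4 TPM in WT medium, 562 ± 12.5 in cKO medium, 733 ± 76.7 with the cytokines, 1414 ± 157 with the cytokines and LPS, 2033 ± 62.0 in cKO LPS and 2380 ± 146 in WT LPS. The order of the last 2 depends on the scale: on log2(TPM + 1) the median difference of all genes, cKO against WT LPS, was -0.34. In CPM, Irf7, the largest part of both sums, had a mean of 1865 in cKO LPS and 1708 in WT LPS. Mean CPM was also higher in cKO LPS for Irf1, Irf5 and Irf9, and lower for Irf2, Irf3, Irf4 and Irf8.

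**Figure D1:**
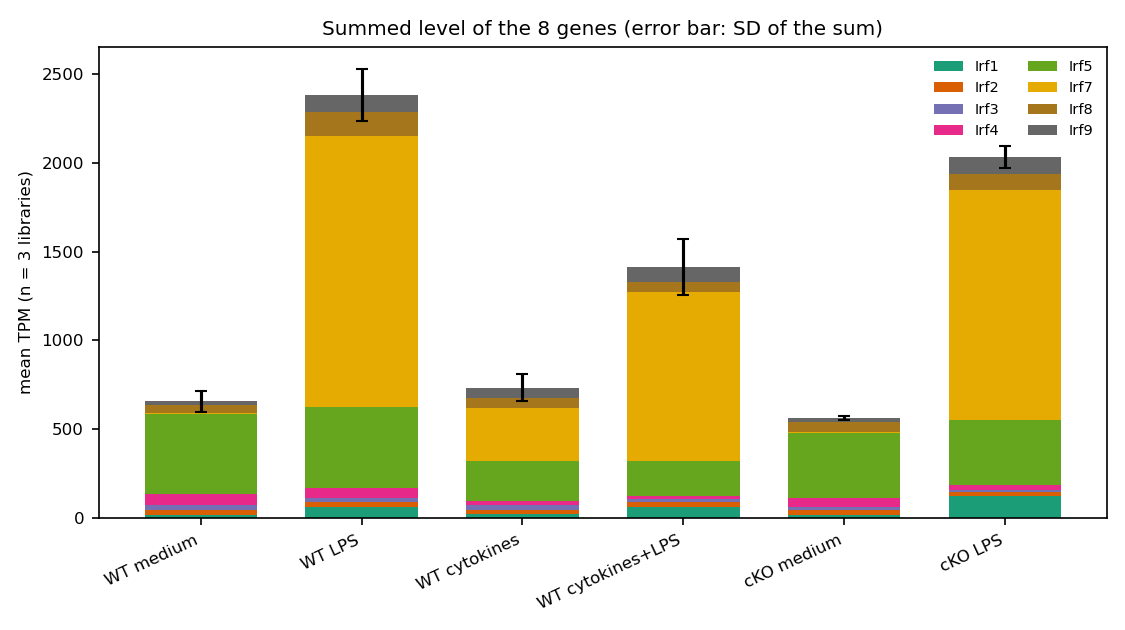
Mean TPM of each of the 8 genes, stacked, in each of the 6 groups (n = 3 libraries each), with the SD of the summed TPM as the error bar. Irf5 fills most of the bars of both medium groups and Irf7 most of the bars of the 3 groups given LPS. The sums were made in TPM only, and their order between groups depends on that scale.

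The first question was how the IRFs responded to LPS. In WT cells 5 of the 8 rose (Irf1, Irf5, Irf7, Irf8 and Irf9) and none fell, where 29.8% of all genes tested rose and 28.9% fell. In cKO cells the same 5 rose and Irf3 fell, against 29.3% and 34.8% of all genes. The median log2 fold change of the 8 was 1.06 in WT cells and 0.84 in cKO cells, beside 0.01 and -0.09 over all genes tested. Adjusted p-values here and below come from edgeR's quasi-likelihood test with Benjamini-Hochberg adjustment over all genes tested, and a gene rose or fell where its adjusted p was under 0.05.

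Irf7 made the largest move of the family. Its 3 libraries held 5.43, 3.09 and 3.53 CPM in WT medium and 1702, 1801 and 1621 CPM in WT LPS. In cKO cells they held 6.17, 5.97 and 4.94 CPM in medium and 1893, 1803 and 1899 CPM under LPS. The LPS libraries lay far above the medium libraries in both genotypes, with no overlap. The log2 fold change was 8.73 ± 0.23 (SE), or 424-fold, in WT cells (adjusted p = 3.6e-16) and 8.35 ± 0.23, or 327-fold, in cKO cells (adjusted p = 2.9e-16). Only 0.143% of all genes tested changed by as much in WT cells.

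Irf9, the DNA-binding subunit of ISGF3, held 26.8, 28.9 and 19.3 CPM in WT medium and 136, 131 and 147 CPM in WT LPS. In cKO cells it held 30.0, 26.6 and 24.7 CPM in medium and 183, 183 and 180 CPM under LPS. Every LPS library was above every medium library. It rose 5.52-fold in WT cells (log2 2.47 ± 0.12, adjusted p = 3e-13) and 6.71-fold in cKO cells (2.75 ± 0.12, adjusted p = 4.2e-14).

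Irf1 held 16.4, 17.8 and 17.1 CPM in WT medium and 72.4, 93.9 and 90.9 CPM in WT LPS. In cKO cells it held 18, 17.7 and 17.1 CPM in medium and 222, 218 and 196 CPM under LPS. The 2 medium groups overlapped, whereas the lowest cKO LPS library was above the highest WT LPS library. The rise was 5.01-fold in WT cells (log2 2.32 ± 0.12, adjusted p = 1.2e-12) and 12.0-fold in cKO cells (3.59 ± 0.12, adjusted p = 1.5e-15).

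Irf8 held 75.3, 86.2 and 45.1 CPM in WT medium and 278, 224 and 248 CPM in WT LPS, and 117, 73.3 and 93.5 CPM in cKO medium and 212, 221 and 189 CPM in cKO LPS. LPS libraries exceeded medium libraries within each genotype, and all WT LPS libraries exceeded all cKO LPS libraries. It rose 3.63-fold in WT cells (log2 1.86 ± 0.20, adjusted p = 3.6e-07) and 2.19-fold in cKO cells (1.13 ± 0.19, adjusted p = 6.6e-05). Irf5 held 570, 531 and 487 CPM in WT medium and 646, 620 and 639 CPM in WT LPS, and went from 441, 454 and 458 CPM to 614, 654 and 705 CPM in cKO cells. These groups did not overlap, and the changes were small: 1.20-fold in WT cells (log2 0.26 ± 0.08, adjusted p = 0.011) and 1.46-fold in cKO cells (0.54 ± 0.08, adjusted p = 9.1e-06).

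Irf2 and Irf4 did not pass the test with LPS in either genotype, and Irf3 passed in cKO cells. Irf2 lay between 33.5 and 47.9 CPM in the 4 groups, and its log2 difference was 0.21 ± 0.10 in WT cells (adjusted p = 0.079) and 0.14 ± 0.10 in cKO cells (adjusted p = 0.26). Irf4 held 185, 176 and 110 CPM in WT medium and 163, 182 and 179 CPM in WT LPS, with a log2 difference of 0.16 ± 0.15 (adjusted p = 0.4). In cKO cells Irf4 held 111, 118 and 147 CPM in medium and 112, 99.2 and 110 CPM under LPS, which overlapped, with a difference in the other direction of -0.23 ± 0.16 (adjusted p = 0.21). Irf3 held 28.7, 28.7 and 28.5 CPM in WT medium and 25.8, 19.8 and 28.8 CPM in WT LPS, which overlapped, with a log2 difference of -0.21 ± 0.12 (adjusted p = 0.13). In cKO cells Irf3 went from 24.0, 26.4 and 25.8 CPM to 20.2, 19.3 and 21.1 CPM, a fall by 0.33 ± 0.12 on the log2 scale (adjusted p = 0.022).

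Several of these calls depended on the libraries, the scaling or the filter. The rise of Irf5 in WT cells was 0.20 (adjusted p = 0.066) without the third WT medium library, 0.25 (adjusted p = 0.095) with no count filter and 0.25 (adjusted p = 0.062) in a fit of just the 2 groups compared. It was 0.01 (adjusted p = 0.93) on the log2(TPM + 1) scale tested with limma, where the median of all genes was -0.21. The fall of Irf3 in cKO cells gave -0.29 (adjusted p = 0.083), -0.27 (adjusted p = 0.11) and -0.30 (adjusted p = 0.057) without the first or the second cKO LPS library or the second cKO medium library. Its call was also lost with RLE scaling, another way to set library sizes (-0.26, adjusted p = 0.063), DESeq2 (-0.26, adjusted p = 0.076), no count filter (-0.31, adjusted p = 0.096) and a fit of just those 2 groups (-0.28, adjusted p = 0.074). Irf3 in WT cells passed the test, at -0.33 (adjusted p = 0.031), without the third WT LPS library, and at -0.46 (adjusted p = 0.0036) on the TPM scale.

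In cKO cells more of these calls changed on the TPM scale, where the median of all genes was -0.51. Irf2 (-0.38, adjusted p = 0.0061), Irf3 (-0.82, adjusted p = 1.2e-05) and Irf4 (-0.73, adjusted p = 0.00029) were all called lower on it. Relative to that median they stood at 0.14, -0.30 and -0.22. Irf5 was 0.01 (adjusted p = 0.92), or 0.52 above the median.

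**Figure D2:**
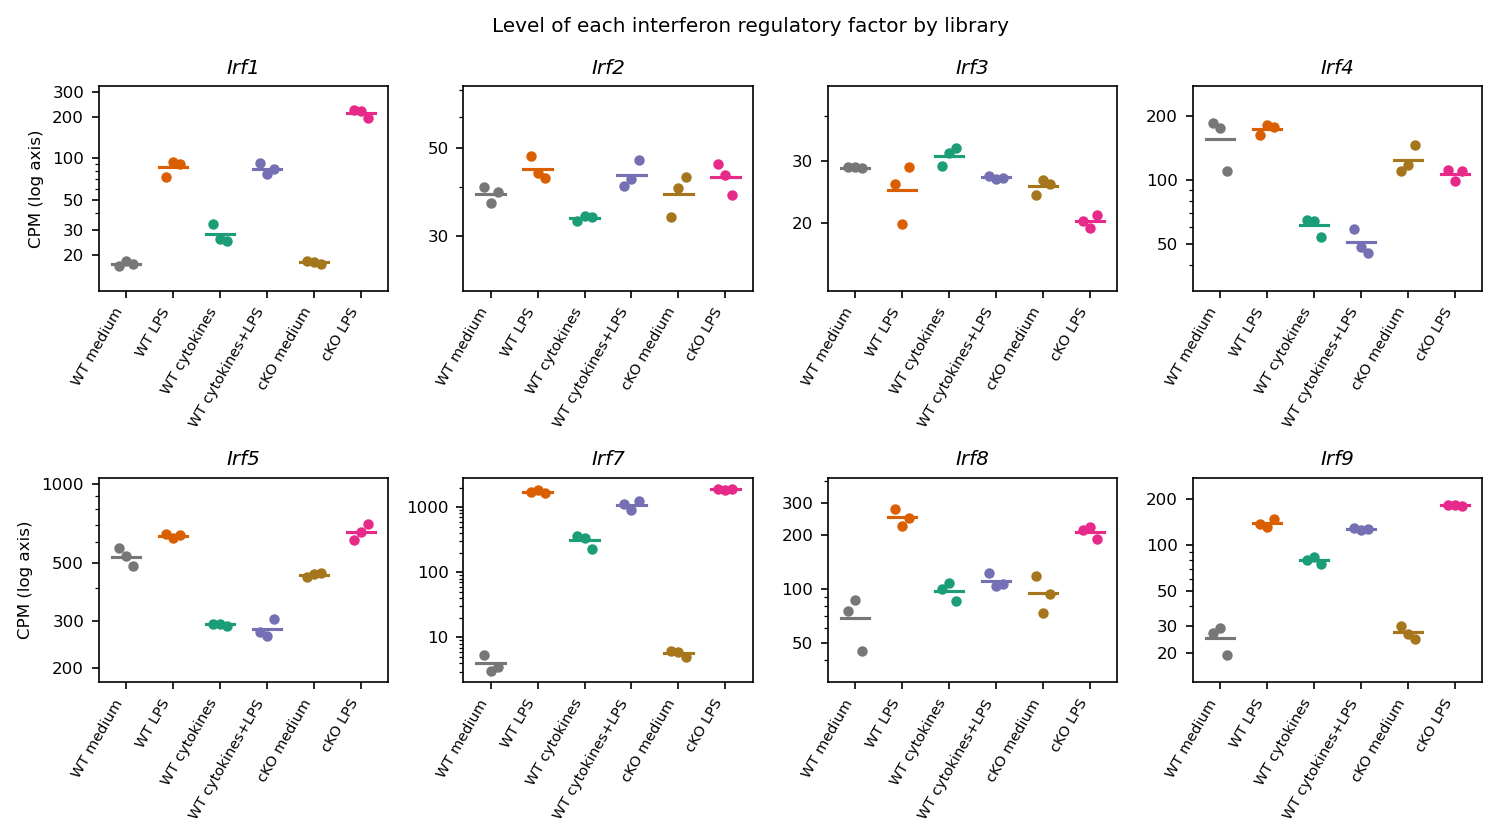
CPM of each gene in each library on log axes (points), with the group mean as a line; axes differ between genes. Irf7 spans from 3.09 to 1899 CPM, Irf1 is highest in cKO LPS (196 to 222 CPM), and Irf4 and Irf5 are lowest in both groups given IL10 + TGF-β.

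The genes around the IRFs were described from lists of sensors and kinases, interferons and their receptors, binding partners and targets. Of 27 sensors, adaptors and kinases, 19 rose and 2 fell with LPS in WT cells (median log2 fold change 0.93, beside 0.01 over all genes), and 21 rose and 5 fell in cKO cells. The RNA sensors Ddx58 (encoding RIG-I; 22.4 to 320 CPM, log2 3.84 ± 0.13, adjusted p = 1.5e-15) and Ifih1 (encoding MDA5; 14.8 to 170 CPM, 3.53 ± 0.12, adjusted p = 1.5e-15) were the clearest. Of 12 tested interferon, receptor and ISGF3 genes, 9 rose and 2 fell in each genotype. Usp18, a brake on the interferon receptor, rose from 3.57 ± 1.37 to 480 ± 110 CPM in WT cells (adjusted p = 4.5e-13). Among 23 partners and regulators, 9 rose and 7 fell in WT cells (median -0.00), where 29.8% of all genes tested rose and 28.9% fell. Peli1 (1.87 ± 0.13, adjusted p = 2.1e-10) and Batf (1.28 ± 0.14, adjusted p = 7.6e-08), the latter a partner of IRF4 and IRF8, were among those that rose.

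All 20 genes of the ISRE target list rose with LPS in both genotypes, with a median log2 fold change of 7.45 in WT and 7.97 in cKO cells. Oasl2, an interferon-induced gene of the oligoadenylate synthetase family, rose from 3.87 ± 0.819 to 737 ± 124 CPM in WT cells (adjusted p = 1.3e-17), and Oas3, of the same family, from 12.9 ± 2.68 to 942 ± 52.6 CPM (adjusted p = 1.9e-17). Of 20 IRF1 targets 19 rose in each genotype, with medians of 2.22 and 2.63. Tap1, a peptide transporter of antigen presentation, rose from 110 ± 27.8 to 636 ± 15.7 CPM in WT cells (adjusted p = 2.6e-12), and Nos2, the inducible nitric oxide synthase, from 28.7 ± 6.61 to 1052 ± 188 CPM (adjusted p = 5.5e-11). The one that did not pass in either genotype, named for that reason, was Ciita, the master regulator of MHC class II genes (WT log2 difference -0.21 ± 0.26, adjusted p = 0.52). Ifnb1, encoding interferon-β, had too few counts to be tested: the 3 libraries together held 1 count in WT medium, 37 in WT LPS, 0 in cKO medium and 15 in cKO LPS. Ifna1 and Ifng had 0 counts in every group.

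The second question was whether the loss of Bat3 altered the IRFs. In medium, Irf5 fell and none of the 8 rose, where 15.8% of all genes tested rose and 14.4% fell. Under LPS, Irf1 and Irf9 rose and Irf4 fell in cKO against WT cells, where 16.0% of all genes rose and 19.3% fell. The difference of the LPS responses between genotypes, tested as an interaction, was called for Irf1 alone, where 7.33% of all genes were called higher and 10.1% lower. The members' median log2 difference was 0.02 in medium and -0.01 under LPS, beside -0.00 and -0.05 over all genes. These comparisons, and those with LPS and cytokines, share groups of libraries, so their values are not independent.

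In medium the differences were small. Irf5 was 1.17-fold lower in cKO cells (log2 -0.23 ± 0.08, adjusted p = 0.042). Without any one of 5 of the 6 libraries that call was lost: -0.22 (adjusted p = 0.11), -0.24 (adjusted p = 0.057) and -0.24 (adjusted p = 0.067) without cKO library 1, 2 or 3, and -0.18 (adjusted p = 0.18) and -0.23 (adjusted p = 0.081) without the first or second WT library. With no count filter Irf5 was -0.26 (adjusted p = 0.13), in a fit of just the 2 groups -0.23 (adjusted p = 0.15), and leaving out both first cKO libraries -0.22 (adjusted p = 0.11). Irf8 differed by 0.46 ± 0.19 (adjusted p = 0.082) and passed, at 0.61 (adjusted p = 0.028) and 0.65 (adjusted p = 0.022), without the second cKO or the second WT library. Irf7 differed by 0.50 ± 0.23 (adjusted p = 0.1), and by 0.78 (adjusted p = 0.019) without the first WT library. Irf4 differed by -0.32 ± 0.15 (adjusted p = 0.12), and by -0.45 (adjusted p = 0.049) and -0.52 (adjusted p = 0.0044) without the third cKO or the third WT library. With no count filter Irf4 (-0.35, adjusted p = 0.024), Irf7 (0.47, adjusted p = 0.034) and Irf8 (0.44, adjusted p = 0.0028) were called in place of Irf5. The 95% intervals for the others were -0.20 to 0.29 for Irf1, -0.19 to 0.20 for Irf2, -0.40 to 0.05 for Irf3 and -0.11 to 0.34 for Irf9. The sum of 10 granulocyte precursor markers was 973 to 2893 CPM in cKO medium and 417 to 937 CPM in WT medium; its part in these differences was not tested.

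Under LPS, Irf1 separated the genotypes most clearly. From the library values given above, it was 2.47-fold higher in cKO than in WT cells (log2 1.31 ± 0.11, adjusted p = 8.4e-08), and a change as large was seen in 6.15% of all genes tested. The interaction was 1.27 ± 0.17 (adjusted p = 7.9e-05) and lay between 1.16 and 1.36 whichever library was left out. Without the first libraries of both cKO groups it was 1.25 (adjusted p = 0.001). On the log2(TPM + 1) scale the difference under LPS was 0.94 (adjusted p = 3.2e-06), which is 1.28 above the median of all genes there (-0.34). Irf9 was 1.32-fold higher in cKO LPS (0.40 ± 0.11, adjusted p = 0.007), with libraries that did not overlap. On the TPM scale Irf9 was 0.04 (adjusted p = 0.8), or 0.38 above that median. The interaction for Irf9 was 0.28 ± 0.16 (adjusted p = 0.23), and 0.44 (adjusted p = 0.028) without the third WT medium library.

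Irf4 held 163, 182 and 179 CPM in WT LPS and 112, 99.2 and 110 CPM in cKO LPS. All cKO libraries were below all WT libraries, and Irf4 was 1.63-fold lower in cKO cells (log2 -0.71 ± 0.16, adjusted p = 0.0018). The interaction for Irf4 did not pass (-0.38 ± 0.22, adjusted p = 0.24). Irf8 differed by -0.27 ± 0.19 under LPS (adjusted p = 0.28), and its interaction was -0.73 ± 0.27 (adjusted p = 0.071). That interaction passed at -0.89 (adjusted p = 0.03) without the second cKO medium library and at -0.93 (adjusted p = 0.026) without the second WT medium library, and at -0.71 (adjusted p = 0.00074) with no count filter. Irf7 differed by 0.13 ± 0.16 under LPS (95% interval -0.18 to 0.44) and Irf5 by 0.05 ± 0.08 (-0.11 to 0.22), while on the TPM scale Irf5 was -0.31 (adjusted p = 0.0037), close to the median shift there, and Irf7 was -0.23 (adjusted p = 0.24). The interaction was -0.37 ± 0.28 for Irf7 (adjusted p = 0.37) and 0.28 ± 0.12 for Irf5 (adjusted p = 0.1), the latter 0.36 with RLE scaling (adjusted p = 0.042) and with DESeq2 (adjusted p = 0.0081). The interaction was -0.08 ± 0.15 for Irf2 (adjusted p = 0.76) and -0.12 ± 0.17 for Irf3 (adjusted p = 0.66). Under LPS Irf2 differed by -0.07 ± 0.10 and Irf3 by -0.30 ± 0.12 (adjusted p = 0.063), the latter -0.44 (adjusted p = 0.0053) without the second WT LPS library.

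On the TPM scale more members were called lower in cKO LPS, with the median of all genes at -0.34. Irf2 (-0.42, adjusted p = 0.0049), Irf3 (-0.60, adjusted p = 0.00067) and Irf8 (-0.63, adjusted p = 0.0094) passed there, as did Irf4 (-1.04, adjusted p = 3.2e-05). Relative to that median they stood at -0.08, -0.26, -0.29 and -0.70. The interactions of Irf4 (-0.67, adjusted p = 0.027) and Irf8 (-1.02, adjusted p = 0.0094) also passed on the TPM scale, where the median interaction of all genes was -0.27. Macrophage markers summed to 3406 to 3531 CPM in cKO LPS and 2311 to 2341 CPM in WT LPS, and their part in these differences was not tested.

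IRF1 targets were among the genes that differed under LPS. In cKO against WT cells 7 of 20 rose and none fell, where 16.0% of all genes tested rose and 19.3% fell. Their median was 0.29, beside -0.05 over all genes. Il27, a cytokine subunit, went from 5.56 ± 1.68 CPM in WT to 19.2 ± 5.40 CPM in cKO LPS (log2 1.79 ± 0.29, adjusted p = 0.0001). Nos2 went from 1052 ± 188 to 2405 ± 122 CPM (1.19 ± 0.22, adjusted p = 0.00054) and Cd274, encoding the checkpoint ligand PD-L1, from 1040 ± 176 to 2017 ± 71.1 CPM (0.96 ± 0.19, adjusted p = 0.0012). Of the ISRE targets 6 of 20 rose and none fell (median 0.38), among them Mx2 (1.04 ± 0.21, adjusted p = 0.0013) and Isg20 (0.76 ± 0.17, adjusted p = 0.0019). Of the sensors and kinases 8 rose and 7 fell (median -0.05): Cd14, the LPS co-receptor and a macrophage marker, was 2.59-fold higher (adjusted p = 2.2e-06), Traf6 1.99-fold higher (adjusted p = 2.2e-06), and Tlr4 went from 150 ± 21.3 to 85.3 ± 0.521 CPM (-0.81 ± 0.11, adjusted p = 1.9e-05). In medium, 2 of the 20 IRF1 targets rose and 5 fell, and 1 of the 20 ISRE targets rose and 2 fell. There, 15.8% of all genes rose and 14.4% fell. Nos2 (2.73-fold, adjusted p = 0.00024) and Isg20 (1.97-fold, adjusted p = 0.0031) were already higher in cKO medium. Mean Cd14 there was 748 CPM, against 308 in WT medium. The genotype interaction did not pass for Il27, Nos2, Cd274, Mx2 or Isg20 (adjusted p = 0.51, 0.61, 0.16, 0.15 and 0.62). It was called higher for 5 IRF1 targets and 3 ISRE targets.

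Of 12 dendritic cell genes linked to IRF4, 2 rose and 2 fell in cKO against WT cells under LPS (median -0.01). The counts of the lists here stand beside 16.0% of all genes tested that rose and 19.3% that fell. Cd1d1, a lipid-presenting molecule, fell (-1.06 ± 0.14, adjusted p = 1.5e-05), and Mgl2, a lectin, rose from 314 ± 105 to 773 ± 111 CPM (1.30 ± 0.23, adjusted p = 0.00054). Of 9 tested genes linked to IRF8, 2 fell and none rose: Tlr3 (-0.82 ± 0.22, adjusted p = 0.0059) and Wdfy4, needed for cross-presentation (-0.37 ± 0.13, adjusted p = 0.031). Among 23 partners and regulators 6 rose and 2 fell (median 0.09), led by Tcf4, encoding an E-protein known from plasmacytoid dendritic cells, which was 2.02-fold higher (adjusted p = 0.00026). Among the interferon and receptor genes, 3 of 12 rose and 2 fell, and Ifnar2 went from 265 ± 65.3 to 420 ± 9.77 CPM (adjusted p = 0.00044).

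**Figure D3:**
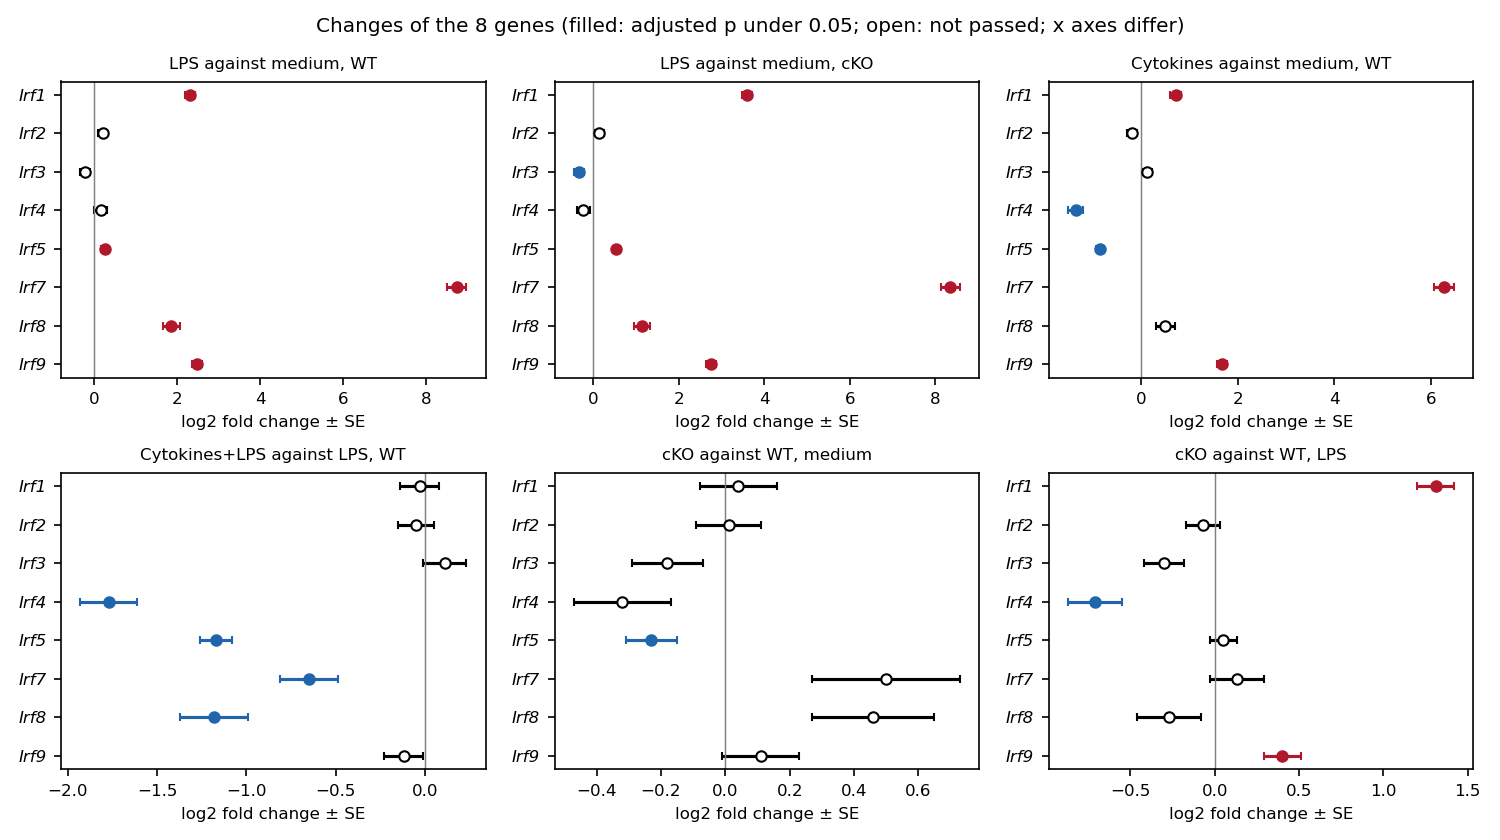
Log2 fold change ± SE of each gene in 6 comparisons; filled points passed at an adjusted p under 0.05 (red rose, blue fell) and open points did not, and the horizontal axes differ. Irf7 has the largest rise in each of the 3 upper panels, and in cKO against WT cells under LPS Irf1 (1.31) stands apart from the other 7.

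The third question was what IL10 + TGF-β did to the IRFs of WT cells without LPS. Irf1, Irf7 and Irf9 rose and Irf4 and Irf5 fell, where 18.3% of all genes tested rose and 16.9% fell. Irf7 held 367, 340 and 227 CPM with the cytokines, all far above the 3.09 to 5.43 CPM of WT medium, a 77.2-fold rise (log2 6.27 ± 0.21, adjusted p = 3.8e-14). Irf9 held 80.3, 83.1 and 74.8 CPM, a 3.17-fold rise with no overlap (1.67 ± 0.11, adjusted p = 2.9e-10). Irf1 held 33.1, 25.8 and 25.2 CPM, above every medium library, a 1.64-fold rise (0.71 ± 0.12, adjusted p = 8.5e-05).

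Irf4 held 65.1, 64.4 and 54.3 CPM with the cytokines against 185, 176 and 110 CPM in medium. It was lower in every cytokine library, by 2.56-fold (log2 -1.36 ± 0.16, adjusted p = 1.2e-06). Irf5 held 294, 292 and 289 CPM against 570, 531 and 487 CPM. That was a 1.81-fold fall with no overlap (-0.86 ± 0.08, adjusted p = 6.6e-08). Irf8 held 99.7, 107 and 85.2 CPM against 75.3, 86.2 and 45.1 CPM, which overlapped, with a log2 difference of 0.50 ± 0.19 (adjusted p = 0.054). With the replicate number as a block it was 0.51 (adjusted p = 0.028), and it was 0.50 with RLE scaling (adjusted p = 0.044), DESeq2 (adjusted p = 0.023) and no count filter (adjusted p = 0.00031). It was 0.59 (adjusted p = 0.049) without the third cytokine library and 0.69 (adjusted p = 0.014) without the second medium library, but 0.27 (adjusted p = 0.2) without the third medium library. Irf2 differed by -0.20 ± 0.10 (adjusted p = 0.13) and Irf3 by 0.12 ± 0.11 (adjusted p = 0.46). On the TPM scale, where the median of all genes was -0.13, Irf2 passed at -0.33 (adjusted p = 0.026) and Irf3 was -0.03.

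Other cell markers moved with this comparison. Beside the low dendritic cell sum given above, Zbtb46, a transcription factor of conventional dendritic cells, lay between 1.32 and 2.62 CPM with the cytokines and between 11.9 and 20.1 CPM in WT medium. The sum of 10 granulocyte precursor markers was 5302 to 7994 CPM with the cytokines and 417 to 937 CPM in WT medium, and none of them was at 0. The sum of 9 macrophage markers was 2805 to 3448 CPM against 1739 to 1881 CPM, and that of 8 mast cell and basophil markers 22.3 to 54.6 CPM against 2.19 to 10.2 CPM. In bulk libraries fewer cells of a type and less RNA per cell cannot be told apart, and the part of these shifts in the IRF differences was not tested.

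Interferon-stimulated genes rose together with Irf7 and Irf9: 18 of the 20 ISRE targets rose with the cytokines and none fell, with a median log2 fold change of 4.62. Oasl2 went from 3.87 ± 0.819 to 261 ± 23.2 CPM (adjusted p = 2.4e-16) and Oas3 from 12.9 ± 2.68 to 232 ± 24.5 CPM (adjusted p = 5.1e-15). Usp18 rose 19.8-fold (adjusted p = 3.5e-10) among the 6 of 12 interferon and receptor genes that rose, while 3 fell. The cytokine libraries together held 5 counts of Ifnb1, against 1 in WT medium and 37 in WT LPS. Of 27 sensors and kinases 11 rose and 4 fell (median 0.27): Ddx58 rose 5.07-fold (adjusted p = 7.2e-12), whereas Ticam2, encoding the TRIF-bridging adaptor TRAM, fell from 39.1 ± 1.32 to 15.1 ± 2.80 CPM (-1.37 ± 0.12, adjusted p = 1.7e-08). Of the 20 IRF1 targets 8 rose and 2 fell (median 0.44), with B2m 2.43-fold higher (adjusted p = 3.7e-08) and Ciita lower (-2.43 ± 0.29, adjusted p = 6.4e-06).

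Genes linked to IRF4 were split. Of 12, 6 fell and 4 rose, with a median of -2.38: the lectin genes Clec10a (207 ± 51.3 to 11.0 ± 1.12 CPM, adjusted p = 3.5e-12) and Mgl2 (1678 ± 401 to 62.3 ± 4.88 CPM, adjusted p = 1e-09) fell, and Ptgs2, the inducible cyclooxygenase, and Sirpa, the receptor of CD47, rose (adjusted p = 4.2e-05 and 7.9e-05). Of 9 tested genes linked to IRF8, 3 rose and 1, Batf3, fell. Batf3, a partner of IRF4 and IRF8, went from 17.5 ± 1.79 to 2.02 ± 1.71 CPM (-3.16 ± 0.30, adjusted p = 7.3e-08). Spib, a relative of the partner PU.1, went from 4.66 ± 2.37 to 0.0647 ± 0.112 CPM (adjusted p = 1.2e-06) among 23 partners and regulators, of which 6 rose and 5 fell. Of all genes tested, 18.3% rose and 16.9% fell with the cytokines.

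The last question was how LPS and the cytokines combined. Against LPS alone, LPS + IL10 + TGF-β lowered Irf4, Irf5, Irf7 and Irf8 and raised none, where 19.1% of all genes tested rose and 21.1% fell. Against the cytokines alone, adding LPS raised Irf1, Irf2, Irf7 and Irf9 and lowered none, where 23.9% of all genes rose and 23.1% fell. The response to LPS differed with and without the cytokines for Irf1, Irf7, Irf8 and Irf9, all lower with them, where 8.88% of all genes were called higher and 12.1% lower.

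Irf7 held 1119, 900 and 1252 CPM with LPS and cytokines. These lay below all WT LPS libraries and above all cytokine libraries. Irf7 was 1.57-fold lower than with LPS alone (log2 -0.65 ± 0.16, adjusted p = 0.0028) and 3.50-fold higher than with the cytokines alone (1.81 ± 0.16, adjusted p = 5.5e-08). Its interaction, -6.92 ± 0.26 (adjusted p = 3.9e-13), sets that 3.50-fold rise against the 424-fold rise from medium. Irf9 held 129, 125 and 128 CPM, a 1.60-fold rise over the cytokines alone (0.68 ± 0.11, adjusted p = 3.1e-05). Against LPS alone Irf9 differed by -0.12 ± 0.11 (adjusted p = 0.41), and its interaction was -1.78 ± 0.16 (adjusted p = 2.8e-08). Irf1 held 91.6, 76.1 and 83.7 CPM, overlapping WT LPS, with a difference of -0.03 ± 0.11 (95% interval -0.25 to 0.18). Irf1 rose 3.00-fold over the cytokines alone (1.58 ± 0.12, adjusted p = 2.1e-09), with an interaction of -0.74 ± 0.16 (adjusted p = 0.0024).

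Irf8 held 122, 103 and 106 CPM with LPS and cytokines, below every WT LPS library and overlapping the cytokine libraries. It was 2.27-fold lower than with LPS alone (log2 -1.18 ± 0.19, adjusted p = 9.4e-05), differed from the cytokines alone by 0.18 ± 0.19 (adjusted p = 0.47), and had an interaction of -1.68 ± 0.27 (adjusted p = 0.00024). Irf4 held 58.8, 48.8 and 45.4 CPM, 3.42-fold below LPS alone with no overlap (-1.77 ± 0.16, adjusted p = 4.7e-08). Irf5 held 273, 264 and 307 CPM, 2.26-fold below LPS alone with no overlap (-1.17 ± 0.09, adjusted p = 1e-09). Neither Irf4 (-0.26 ± 0.16, adjusted p = 0.18) nor Irf5 (-0.05 ± 0.08, adjusted p = 0.63) passed against the cytokines alone. The interaction was -0.42 ± 0.22 for Irf4 (adjusted p = 0.2) and -0.31 ± 0.12 for Irf5 (adjusted p = 0.066), the latter -0.38 (adjusted p = 0.04) without the third library given LPS and cytokines and -0.37 (adjusted p = 0.05) without the first medium library, and -0.32 (adjusted p = 0.019) with DESeq2.

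Irf2 rose 1.29-fold when LPS was added to the cytokines, from 32.7, 33.7 and 33.5 CPM to 40.2, 41.7 and 46.6 CPM, without overlap (log2 0.36 ± 0.10, adjusted p = 0.0059). On the TPM scale the same change was 0.21 (adjusted p = 0.14), or 0.33 above the median of all genes. On that scale Irf3 (-0.33, adjusted p = 0.034) and Irf4 (-0.39, adjusted p = 0.041) were called lower with LPS added, against a median of -0.12. Against LPS alone Irf2 differed by -0.05 ± 0.10 (adjusted p = 0.73). The interaction was 0.15 ± 0.14 for Irf2 (adjusted p = 0.51) and -0.00 ± 0.16 for Irf3 (adjusted p = 0.99). Irf3 differed by 0.11 ± 0.12 from LPS alone and by -0.21 ± 0.11 from the cytokines alone (adjusted p = 0.47 and 0.14). Granulocyte precursor markers summed to 2928 to 3901 CPM with LPS and cytokines against 748 to 2203 CPM in WT LPS, and macrophage markers to 3864 to 4302 CPM against 2311 to 2341 CPM; their part in these differences was not tested.

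**Figure D4:**
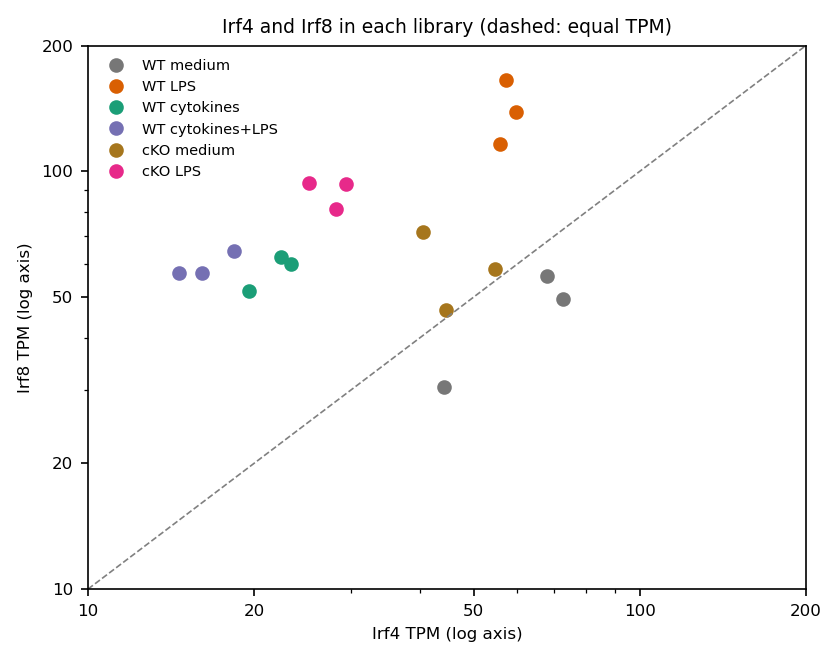
TPM of Irf8 against TPM of Irf4 in each of the 18 libraries on log axes, with equal TPM as a dashed line. The 3 WT medium libraries lie below the line and all other libraries above it, with ratios of Irf8 to Irf4 from 0.685 to 0.823 in WT medium and up to 3.91 with LPS + IL10 + TGF-β.

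The balance of Irf8 to Irf4 in TPM therefore differed between some groups but not all. The ratio was 0.733 ± 0.0787 in WT medium and 1.29 ± 0.412 in cKO medium, where single libraries ran from 1.05 to 1.77. It was 2.43 ± 0.413 in WT LPS, 2.67 ± 0.113 with the cytokines, 3.27 ± 0.438 in cKO LPS and 3.65 ± 0.223 with LPS and cytokines. Libraries of WT LPS (2.07 to 2.88) and the cytokines (2.58 to 2.80) overlapped. Those of cKO LPS (2.88 to 3.74) overlapped those with LPS and cytokines (3.50 to 3.91). The ratio of Irf1 to its antagonist Irf2 was 0.528 ± 0.0489 in WT medium and 0.549 ± 0.0795 in cKO medium, 2.29 ± 0.449 in WT LPS and 5.91 ± 0.188 in cKO LPS. With the cytokines it was 0.989 ± 0.171, and with LPS added 2.31 ± 0.318.

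Target genes of the IRFs were mostly lower with LPS and cytokines than with LPS alone. Of 20 ISRE targets 16 fell and 1 rose (median -1.43): Isg15, a ubiquitin-like modifier, went from 451 ± 51.1 to 134 ± 26.9 CPM (adjusted p = 1.1e-07) and Mx1, an antiviral GTPase, from 374 ± 23.3 to 69.7 ± 20.8 CPM (adjusted p = 7.9e-07). The one that rose, named for that reason, was Oas2 (112 to 215 CPM, 0.95 ± 0.17, adjusted p = 0.00016). Of 20 IRF1 targets 18 fell and none rose (median -0.84), although Irf1 itself held similar CPM in both groups. Il12a, a subunit of interleukin-12, went from 21.9 ± 5.82 to 1.83 ± 0.288 CPM (-3.56 ± 0.33, adjusted p = 6.7e-08), and Psme2, a proteasome activator subunit, from 527 ± 111 to 246 ± 18.6 CPM (adjusted p = 2.1e-07). Of the 12 genes linked to IRF4, 8 fell and 2 rose (median -3.11), with Mgl2 lower by 4.58 ± 0.28 and Ccl17, a chemokine, going from 1856 ± 188 to 12.4 ± 3.25 CPM (adjusted p = 3.1e-09 and 8e-06). Of 12 interferon and receptor genes 8 fell and 1, Ifngr1, rose (0.93 ± 0.10, adjusted p = 4.3e-07), and the receptor chain Ifnar1 went from 348 ± 10.9 to 188 ± 2.79 CPM (adjusted p = 2.2e-07). Ifnb1 held 11 counts over the 3 libraries.

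The upstream genes divided more evenly. Of 27 sensors, adaptors and kinases 7 rose and 10 fell against LPS alone (median -0.14), with Ticam2 lower (-1.36 ± 0.12, adjusted p = 1.1e-08) and Tirap, the MyD88-bridging adaptor, higher (1.10 ± 0.12, adjusted p = 4.2e-07). Of 23 partners and regulators 5 rose and 7 fell (median -0.07), and Batf3 went from 25.7 ± 1.51 to 2.29 ± 0.0608 CPM (-3.49 ± 0.29, adjusted p = 1.7e-08). Of 9 tested genes linked to IRF8, 3 rose and 4 fell (median -0.64). Against LPS alone, 19.1% of all genes tested rose and 21.1% fell. When LPS was added to the cytokines, 19 of the 20 ISRE targets rose (median 1.41) and 14 of the 20 IRF1 targets rose while 1 fell (median 0.61).

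**Figure D5:**
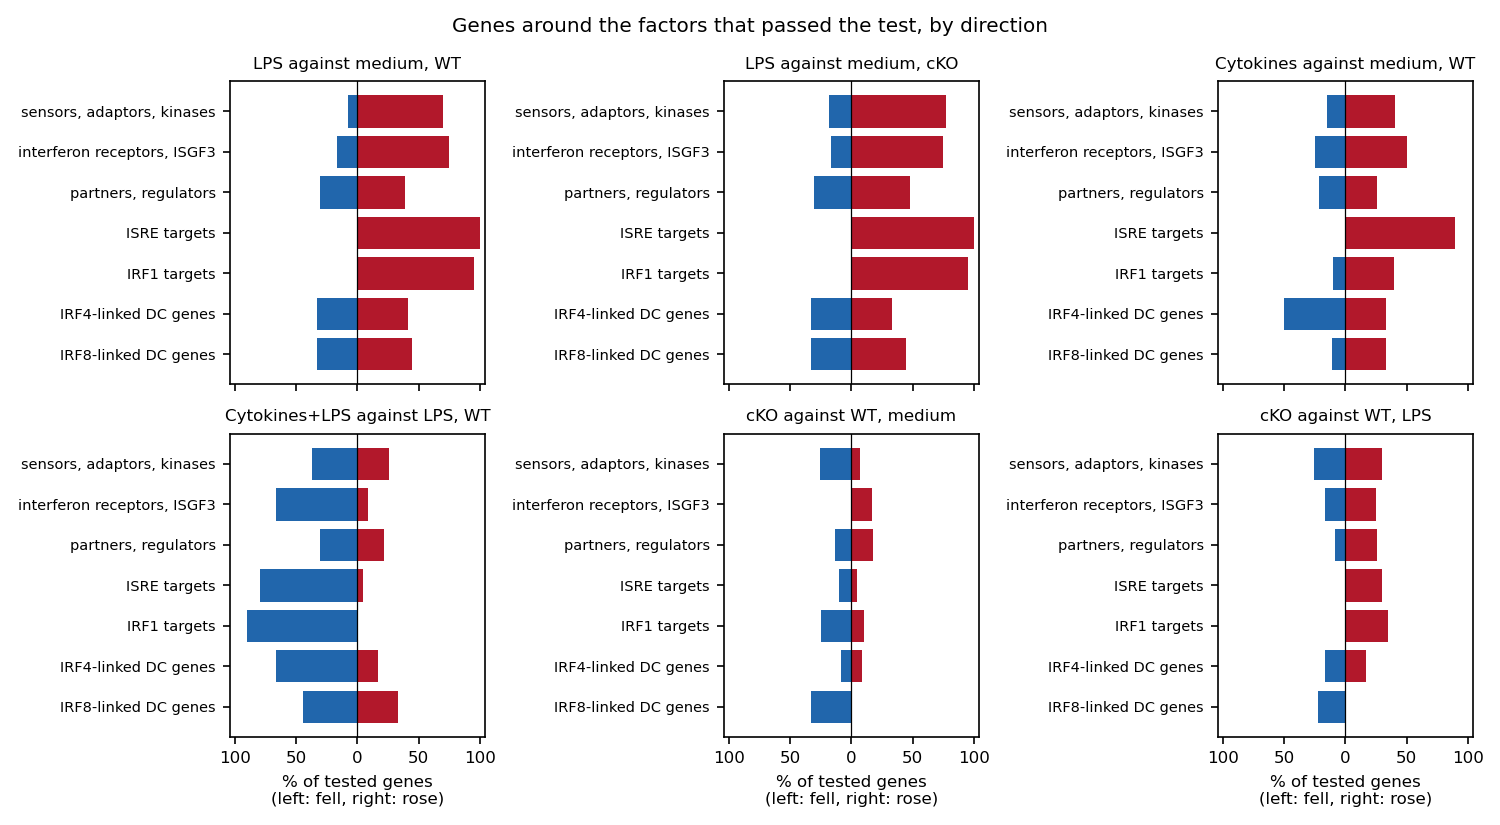
Share of the tested genes of 7 lists that rose (red, right) or fell (blue, left) in 6 comparisons, in percent. ISRE targets rose in 20 of 20 genes with LPS in both genotypes and in 18 of 20 with the cytokines alone, and fell in 16 of 20 when the cytokines accompanied LPS.

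Across the 18 libraries some members followed each other, described here by Pearson's r of log2 CPM, which depends on the treatments the libraries share. The closest pair was Irf7 and Irf9 (r = 0.99), followed by Irf1 and Irf9 (0.92) and Irf1 and Irf7 (0.88). Irf4 and Irf5 had r = 0.85, and Irf3 ran opposite to Irf1 (-0.67). Among 7790 other named genes, those most like Irf7 were Ifi44, Pydc3 and Oas3 (r from 0.99 to 1.00) and those most like Irf9 were Parp10, Xaf1 and Ifi44 (0.99 to 1.00). Irf1 was most like Gla, Samd8 and Cfl2 (0.99), Irf5 like Got1, Anxa4 and Rbpj (0.97 to 0.98), Irf4 like Enox2, Plbd1 and Kcp (0.95 to 0.96), and Irf8 like Glipr2, Plk2 and Dcp1a (0.94 to 0.95). Irf3 was most like Tomm34, Nubp2 and Stk16 (0.92 to 0.93), and Irf2, the flattest member with a 1.33-fold span between its highest and lowest group means, like Arfrp1, Klc4 and Ten1 (0.80 to 0.84).

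The scale bears on the small differences above. On the log2(TPM + 1) scale the share of called genes that were higher went from 45.3% to 11.6% for cKO against WT under LPS, from 52.4% to 39.5% in medium, from 50.8% to 32.9% for LPS in WT cells, from 45.7% to 21.7% for LPS in cKO cells, from 52.0% to 33.8% for the cytokines, and from 50.9% to 35.8% for LPS added to the cytokines. For the genotype interaction it went from 42.0% to 12.3% on the TPM scale and to 55.2% with RLE scaling, and for the cytokine interaction from 42.4% to 56.2% on the TPM scale. The rises of Irf7, Irf1 and Irf9 with LPS or the cytokines and the falls of Irf4 and Irf5 with the cytokines were called on both scales. Without the third WT medium library they were 8.64 for Irf7, 2.32 for Irf1 and 2.31 for Irf9 with LPS, 6.19, 0.71 and 1.51 with the cytokines, and -1.56 and -0.92 for Irf4 and Irf5 with the cytokines.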

How the data were processed

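Gene expression was measured by RNA sequencing (TruSeq RNA kit) in 18 libraries of 6 groups, taken with their replicate numbers from the sample titles. The authors deposited gene-level expected counts and TPM made with RSEM on mm10 after bcl2fastq, per the file headers and the submitters' processing notes, which give no versions. The deposited tables also list transcript lengths per the file headers; weighted lengths of a member varied little between libraries. The design text in the labels names other aligners, whose output was not used here.

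Expected counts (8056831 to 12068759 per library) were rounded, filtered with filterByExpr (11876 genes kept), scaled by TMM and fitted over all 6 groups with edgeR 4.0.16 in R 4.3.3, by the robust quasi-likelihood F-test. P-values were adjusted by Benjamini-Hochberg over all genes tested in each of 7 comparisons and 2 interactions, at 0.05. The common biological coefficient of variation was 0.133. The depth limits precision for genes with few counts, such as Ifnb1, and intervals cover the spread between these libraries. The procedure was tested on simulated data.

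The members, lists and tests were chosen with earlier results of these data known. All 8 members are named in each comparison; of each list the called genes with the smallest p are named, and for each member the 3 genes with the highest Pearson r of log2 CPM (prior count 2, mean of at least 3). A few genes appear in more than 1 list (Tlr3, Batf3, Cd14, Ccr7).

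Alternatives were RLE scaling, DESeq2 1.42.0, no count filter, at least 5 CPM in 3 libraries, fitting just the groups of each comparison, blocking on the replicate number, limma 3.58.1 on log2(TPM + 1) and log2(TPM + 0.1) for genes with a mean TPM of at least 1, each library left out in turn, and both first cKO libraries left out. Whether replicate numbers pair libraries was checked from the correlation of their deviations from the mean of each group. All 3 correlations exceeded 0.1 in 2 of 15 pairs of groups, and of these only WT medium and cytokines (0.35, 0.21 and 0.44) were compared; that pairing comes from the data. Promoters and positions are RefSeq's on GRCm38.p6.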

Additional observations from a re-analysis of the deposited data

Results flagged for a closer look

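Of the tested differences between responses, 5 passed for the members. The LPS response of Irf1 differed between genotypes by 1.27 on the log2 scale, larger in cKO cells. The LPS response in WT cells was smaller in the presence of IL10 + TGF-β for Irf1 (-0.74), Irf7 (-6.92), Irf8 (-1.68) and Irf9 (-1.78). Groups of 3 libraries were not searched for outlying single libraries by a test. The third WT medium library was singled out from its values, and each library was left out in turn.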

How the results depend on the processing

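The 8 members gave 72 log2 differences in 9 comparisons, of which 33 were called. Over 1136 values under alternatives, 1020 kept direction and call, 26 lost the call, 47 gained one and 43 changed sign. Values that changed sign were counted as such whether or not they were called. The lost calls were Irf5 in cKO against WT medium, Irf5 with LPS in each genotype, Irf3 with LPS in cKO cells, Irf9 in cKO against WT under LPS and Irf2 with LPS added to the cytokines. The cause was not tested, except that a fit of only the groups compared uses fewer libraries.

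For cKO against WT in medium, where Irf5 was the 1 member called, no count filter gave 3 (Irf4, Irf7 and Irf8, without Irf5), only the groups compared 0, the replicate block 2 (Irf5 and Irf8), and leaving out both first cKO libraries 0; single libraries left out gave 0 to 2. For the genotype interaction, where Irf1 was called, RLE scaling and DESeq2 gave 2 (Irf5 added), no count filter and the replicate block 2 (Irf8 added), both TPM scales 3 (Irf4 and Irf8 added), and single libraries left out 1 to 2. For cKO against WT under LPS, where 3 were called, both TPM scales gave 6, adding Irf2, Irf3, Irf5 and Irf8 and losing Irf9. With the replicate block Irf8 passed in cKO against WT medium (0.47, adjusted p = 0.048) and in the genotype interaction (-0.74, adjusted p = 0.042), though these groups share only a number; beside Irf8 with the cytokines, the block changed no other call. Its value for the Irf3 cytokine interaction was 0.00.

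Sign changes concerned small differences that were not called in the main fit, but some were called in the other direction on the TPM scales. With limma on log2(TPM + 1) these were Irf5 in cKO against WT under LPS (-0.31, adjusted p = 0.0037) and Irf2 with LPS in cKO cells (-0.38, adjusted p = 0.0061). In cKO against WT medium Irf2 was -0.02 with RLE, DESeq2 and no filter and -0.08 on both TPM scales, from -0.07 to 0.09 without single libraries; Irf1 was -0.03 (TPM + 1) and -0.04 (TPM + 0.1); Irf9 was -0.04 to 0.23 without single libraries. Under LPS, both TPM scales gave -0.31 for Irf5 and -0.23 for Irf7, and Irf2 was -0.11 to 0.01 without single libraries. With LPS in WT cells both TPM scales gave -0.04 for Irf2 and -0.06 for Irf4, the latter -0.05 to 0.29 without single libraries. With LPS in cKO cells Irf2 was -0.38 and -0.39 on the TPM scales, and -0.02 without both first cKO libraries. With the cytokines Irf3 was -0.03 and -0.04 on the TPM scales. Against LPS alone, single libraries left out gave -0.14 to 0.04 for Irf1, -0.11 to 0.01 for Irf2 and -0.02 to 0.24 for Irf3. For the genotype interaction they gave -0.17 to 0.03 for Irf2. The Irf3 cytokine interaction was 0.01 with no filter, 0.02 with only the groups compared, 0.13 and 0.14 on the TPM scales, and -0.14 to 0.12 without single libraries.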
